A study of Mus musculus with 22 samples.

Results

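The genes described here are the transcriptional co-activators YAP (Yap1) and TAZ (Wwtr1), their DNA-binding partner Tead1, and 7 genes known as direct targets of this pathway (Ccn1, Ccn2, Ankrd1, Amotl1, Amotl2, Ajuba and Lats2). They are the rows of a count table of 55414 mouse genes whose Ensembl identifier carries one of these symbols. That rule uses names and no measured value, but the genes were chosen with earlier results of these data known. All 10 were found, and all 10 had enough counts to be among the 17554 genes tested. The RNA came from fibroblasts of mouse back skin, sorted as live cells negative for CD31, CD45, CD117 and EpCAM and positive for CD34 and PDGFRα. In every mouse an incision was made near the tail and a path was opened under the skin toward the neck. EXP mice then received an expander hydrogel, an implant that swells and stretches the skin above it, and CTRL mice had the same operation with no implant. Skin was taken on day 1 (4 CTRL and 5 EXP libraries), day 2 (3 CTRL and 3 EXP) and day 4 (4 CTRL and 3 EXP). No unoperated skin was included in these 22 libraries, so both arms carry the wound. The labels used here state no strain, age or sex and number the libraries without saying whether each was a separate mouse, so p-values measure the spread between these libraries.

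YAP and TAZ are closely related proteins that shuttle between cytoplasm and nucleus. In the nucleus they bind TEAD factors and switch on genes such as Ccn1 and Ccn2, and the kinases LATS1 and LATS2 of the Hippo pathway phosphorylate them and hold them in the cytoplasm. Stretch, stiff matrix and cell spreading are known to drive them into the nucleus, and several targets, Lats2 and the angiomotins among them, restrain the pathway in turn. Their activity is set largely at the protein level, which mRNA counts do not measure.

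The recognition sequence of TEAD factors was looked for near the start sites of these genes, because the members that changed with the expander went in opposite directions. RefSeq promoter windows (assembly GRCm38.p6, 250 bases before to 50 bases after the start) were matched for 8 of the 10 genes, all but Ccn2 and Tead1. The 250 bases before the start are shown for 3 genes that changed on day 4, of which 1 rose and 2 fell, 5′ to 3′ on the strand of the gene, with the letters CATTCC or their reverse complement GGAATG in capitals. The windows of Ccn1 (chr3:145649986-145650235), Ankrd1 (chr19:36119845-36120094) and Amotl1 (chr9:14615001-14615250) all lie on the minus strand.
Ccn1: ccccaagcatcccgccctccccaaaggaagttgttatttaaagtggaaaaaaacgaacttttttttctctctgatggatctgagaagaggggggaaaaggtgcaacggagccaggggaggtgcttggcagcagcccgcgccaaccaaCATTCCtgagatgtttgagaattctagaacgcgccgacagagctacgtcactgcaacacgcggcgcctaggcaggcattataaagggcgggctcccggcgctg
Ankrd1: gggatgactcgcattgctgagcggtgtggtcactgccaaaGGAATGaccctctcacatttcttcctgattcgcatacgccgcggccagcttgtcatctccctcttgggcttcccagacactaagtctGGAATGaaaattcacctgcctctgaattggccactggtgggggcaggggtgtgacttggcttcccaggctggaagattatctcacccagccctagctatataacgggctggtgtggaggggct
Amotl1: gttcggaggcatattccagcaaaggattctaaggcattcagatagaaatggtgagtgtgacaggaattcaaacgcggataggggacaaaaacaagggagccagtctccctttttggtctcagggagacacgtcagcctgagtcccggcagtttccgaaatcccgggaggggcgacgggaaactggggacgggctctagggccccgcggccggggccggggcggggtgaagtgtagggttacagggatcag
The Ccn1 stretch holds the letters once, with their first base at -103 relative to the start, and the Ankrd1 stretch holds them 2 times, at -210 and -123. The Amotl1 stretch does not hold them. Over both strands, 8 of the 10 windows of these genes had the letters, against 4817 of all 32851 windows (14.7%). By gene, 7 of the 8 had them in at least 1 window. The genes were chosen as parts or known targets of this pathway, so that share is no result of these data. The AP-1 letters TGANTCA (7.81% of all windows) and the CArG box (1.63%), which SRF binds, had no match in a window of these 8 genes. Such a match is a run of letters and not a measured binding site.

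The libraries held 21461294 to 30210204 counts in all, and 3 counts, taken as the floor of detection, correspond to 0.0993 to 0.140 CPM (the usual depth-scaled count unit, here on totals scaled by TMM), a floor that covers counting error only. Pdgfra and Cd34 were present in all 22 libraries, at 227 to 1020 and 217 to 2350 CPM. The summed level of 6 fibroblast markers was lower in EXP, for example 40700 to 185000 CPM against 188000 to 249000 CPM in CTRL on day 4. That sum follows its most abundant genes, Col1a1 and Col1a2, which reached 135000 and 128000 CPM, and does not describe Pdgfra and Cd34. A set of 192 genes that follow Rnf10 split the libraries into 2 sides. The high side held 7 libraries (3 CTRL and 2 EXP of day 1, 2 CTRL of day 4) and the low side 15. No EXP library of day 4 was on the high side, so on that day the split partly coincides with the arm. The labels name no batch that matches the split, and values within each side are given where they end a call. Scaling by library totals without TMM shifted the median log2 fold change of all tested genes to 0.207 on day 1, 0.489 on day 2 and 0.363 on day 4, from 0.017, 0.021 and 0.031. The share of calls that were higher in EXP then moved from 48.7% to 66.2%, from 57.5% to 90.5% and from 57% to 80.8%.

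On day 4 the well known targets went opposite ways in EXP fibroblasts: Ccn1 and Amotl1 fell, and Ccn2 and Ankrd1 rose. Of the 10 genes, 2 were higher, against 12.8% of all tested genes, and 2 were lower, against 9.66%. On day 2, Ccn2 was higher, against 7.72% of tested genes, and Ccn1 and Amotl1 were lower, against 5.71%. On day 1, Tead1 was higher, against 13.9% of tested genes, and Ajuba was lower, against 14.7%. Counting both directions, 28.6%, 13.4% and 22.5% of all tested genes were called on days 1, 2 and 4, beside 2, 3 and 4 of the 10 genes, and nothing particular to these genes is read from the counts. Ankrd1 entered the tested genes only through the day 4 EXP libraries, since no other library held the 10 counts the filter asks for, and its place in the day 4 count is favoured by that. The median log2 fold change of the 10 genes was 0.30, -0.11 and -0.17 on days 1, 2 and 4. The threshold for a call was 0.05 on the adjusted p (edgeR quasi-likelihood F-test, Benjamini-Hochberg over all tested genes of a contrast), and every adjusted p of a fold change below is from that test. In bulk RNA of sorted cells, fewer cells of a type and less RNA per cell cannot be told apart.

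**Figure D1:**
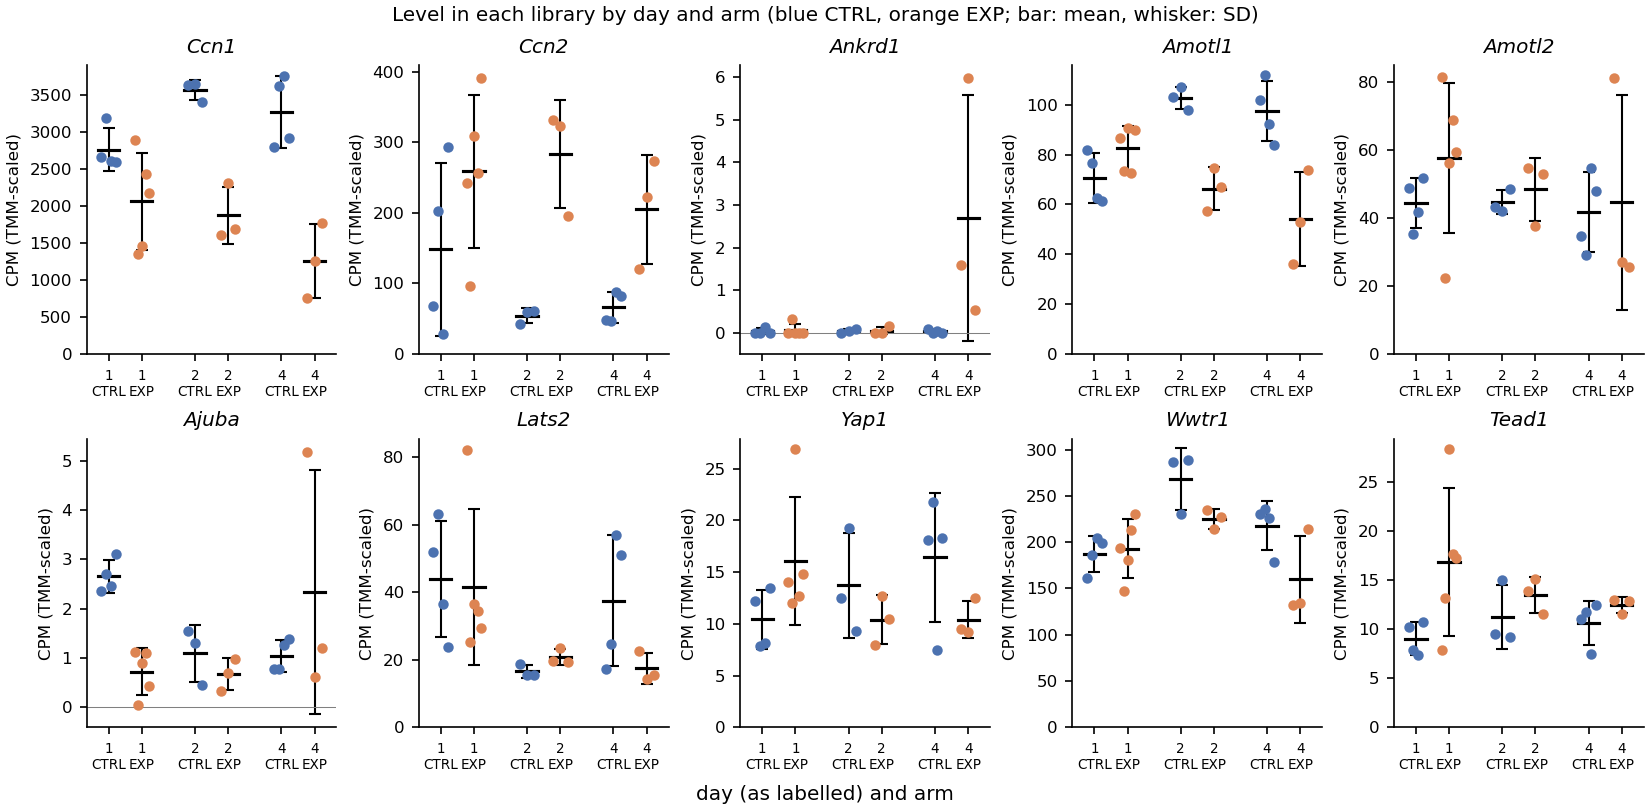
Level of the 10 genes in each library (CPM on TMM-scaled totals, linear axis with its own range in each panel) by day and arm, CTRL in blue and EXP in orange, with the mean as a bar and the SD as a whisker. On day 4 the 3 EXP libraries sit below all CTRL libraries for Ccn1 (756 to 1762 CPM) and Amotl1, and above them for Ccn2 and Ankrd1.

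Ccn1 (ENSMUSG00000028195, formerly Cyr61) encodes a secreted matricellular protein that binds integrins and is among the first genes induced by YAP and TAZ. On day 4 it was at 2798, 3608, 3744 and 2908 CPM in the CTRL libraries and at 756, 1250 and 1762 CPM in EXP. The day 2 CTRL libraries stood at 3633, 3645 and 3398 CPM and the EXP libraries at 1605, 2309 and 1690 CPM. On both days every EXP library lay below every CTRL library. The log2 fold change of Ccn1 was -1.38 (SE 0.27) on day 4, with an adjusted p of 0.00216, and -0.93 (SE 0.28) on day 2, with 0.0328. The day 4 fall passed the test with each of the 7 libraries left out in turn, at -1.69 to -1.12, and within the split's low side alone, at -1.35 (adjusted p 0.0182). The day 2 call was lost without any one of the 3 CTRL libraries or EXP replicate 1 or 3 (adjusted p 0.0271 to 0.149 over all 6 omissions) and on library totals without TMM, where it was -0.475 (adjusted p 0.177).
On day 1 Ccn1 was at 2654, 3182, 2597 and 2591 CPM in CTRL and at 2893, 1346, 1455, 2427 and 2171 CPM in EXP. The arms overlapped, and Ccn1 was not called (log2 fold change -0.42, SE 0.23, adjusted p 0.178). By group mean the order of the levels was CTRL day 2, CTRL day 4, CTRL day 1, EXP day 1, EXP day 2 and EXP day 4, from 3559 ± 139 CPM (SD, n = 3) down to 1256 ± 503 CPM (SD, n = 3), and each group overlapped its neighbour in that order. Whether the effect of the expander on Ccn1 differed between days did not pass the joint test (adjusted p 0.175).

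Ccn2 (ENSMUSG00000019997, formerly Ctgf) encodes connective tissue growth factor, a secreted relative of CCN1 tied to fibrosis and also induced by TGF-beta. On day 2 its CTRL libraries were at 41.8, 59.8 and 60.5 CPM and its EXP libraries at 332, 323 and 196 CPM. On day 4 CTRL stood at 48.6, 46.4, 87.7 and 82.3 CPM and EXP at 121, 222 and 273 CPM. On both days every EXP library was above every CTRL library. The log2 fold change was 2.39 (SE 0.63) on day 2, with an adjusted p of 0.0164, and 1.63 (SE 0.56) on day 4, with 0.0419. Both calls lie near the threshold: the day 2 call was lost without any one of the 3 CTRL libraries or EXP replicate 1 (adjusted p 0.0272 to 0.0739 over all 6 omissions), and the day 4 call without any one of the 7 libraries (0.0571 to 0.117). With the library split as a covariate the day 4 value was 1.25 (adjusted p 0.185), and within its low side 2.11 (adjusted p 0.0422).
The day 1 libraries of Ccn2 spread widely, with 68.2, 203, 27.9 and 294 CPM in CTRL and 242, 95.9, 309, 257 and 391 CPM in EXP. The arms overlapped on that day (log2 fold change 0.81, SE 0.50, adjusted p 0.240). That value was 0.458 without CTRL replicate 3 and 1.376 without CTRL replicate 4 (adjusted p 0.0551), and limma voom called it at 1.572 (adjusted p 0.0224). The highest group mean was EXP day 2 (284 ± 75.8 CPM, SD, n = 3), followed by EXP day 1, EXP day 4, CTRL day 1, CTRL day 4 and CTRL day 2 (54.0 ± 10.6 CPM, SD, n = 3), with overlap between every pair of neighbours. Exons of Ccn2 overlap those of Gm15270 on the opposite strand in GENCODE M21, and the use of strand in counting is not given in the sources used here, so reads of the 2 genes cannot be told apart.

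The balance between the 2 genes can be read within a library, where scaling cancels. The log2 ratio of Ccn2 to Ccn1 counts was -4.73 ± 1.49 (SD, n = 4) in CTRL of day 1, against -3.07 ± 0.69 (SD, n = 5) in EXP. On day 2 it was -6.06 ± 0.34 in CTRL and -2.74 ± 0.43 in EXP (SD, n = 3 each). For day 4 the CTRL value was -5.67 ± 0.50 (SD, n = 4), against -2.61 ± 0.11 in EXP (SD, n = 3). The arms did not overlap on day 2 (-6.44 to -5.81 in CTRL, -3.11 to -2.27 in EXP) or day 4 (-6.28 to -5.14 in CTRL, -2.69 to -2.49 in EXP), and they did on day 1. The differences of 1.67, 3.32 and 3.06 gave two-sided exact permutation p-values of 0.0794, 0.1 and 0.0571, each 0.2 after Benjamini-Hochberg adjustment over 6 ratio tests. The smallest p these library numbers allow is 0.0159 on day 1, 0.1 on day 2 and 0.0571 on day 4, so days 2 and 4 could not pass 0.05.

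**Figure D2:**
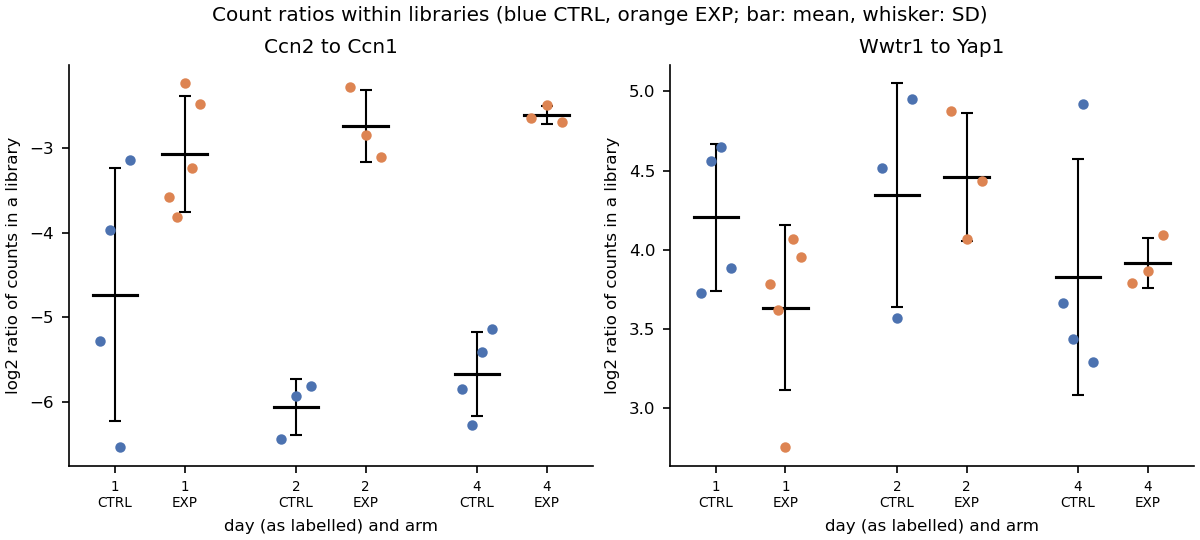
Log2 ratio of counts within each library for Ccn2 to Ccn1 (left) and Wwtr1 to Yap1 (right), by day and arm, with CTRL in blue, EXP in orange, means as bars and SDs as whiskers. The Ccn2 to Ccn1 ratio separates the arms on days 2 and 4, and the Wwtr1 to Yap1 ratio overlaps between arms on all 3 days.

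Ankrd1 (ENSMUSG00000024803) encodes a stretch-responsive ankyrin repeat protein, abundant in heart muscle and a widely used YAP and TAZ reporter gene. It was near the floor in every group but one. The day 4 EXP libraries held 59, 172 and 15 counts (1.58, 5.97 and 0.536 CPM), while the 4 CTRL libraries of that day held 2, 0, 1 and 0. The other groups held 4 counts in all in CTRL and 8 in EXP on day 1, and 3 in CTRL and 4 in EXP on day 2, and in each of these at least 1 library had none. All 3 EXP libraries of day 4 therefore lay above every other library. Against 3 pooled CTRL counts the day 4 ratio was 79.2, with an exact 95% interval of 26.8 to 387 that covers counting error only. The fitted log2 fold change was 6.14 (SE 1.48, adjusted p 0.00720), a value that depends on the prior count because CTRL is near 0. The filter on low counts admitted Ankrd1 only through these 3 EXP libraries, so this test was favoured by the filter. With every gene of at least 1 count tested instead, the value was 6.16 (adjusted p 0.00978). Leaving out EXP replicate 2, the highest, gave 4.78 (adjusted p 0.0612), and the split's low side alone gave 5.72 (adjusted p 0.0638). The other 6 single-library omissions kept the call.
Marker genes of other cell types were summed beside this result. The 5 adipocyte markers summed to 0.805, 37.3 and 130 CPM in EXP replicates 1, 2 and 3 of day 4 and to 0.0429 to 0.58 CPM in CTRL, where Plin1, Lep and Retn were at 0 in every library. The adipocyte sum was highest in replicate 3, which had the least Ankrd1, and lowest in replicate 1. The 6 endothelial markers summed to 2.36, 9.51 and 7.07 CPM in EXP and 0.168 to 3.53 CPM in CTRL. The 6 skeletal muscle markers summed to 5.77, 3.75 and 1.64 CPM in EXP and 1.69 to 3.44 CPM in CTRL, with Myh4 at 0 in all EXP libraries of day 4. The 6 pericyte and smooth muscle markers summed to 19.8, 60.5 and 54.8 CPM in EXP and 44.8 to 109 CPM in CTRL. The arms overlapped for the endothelial, skeletal muscle and pericyte sums. The 6 haematopoietic markers summed to 36.6, 20.6 and 19.7 CPM in those EXP libraries, above CTRL. EXP replicate 2 had the most Ankrd1 and the highest endothelial and pericyte sums. Marker sums moved with the arm on the earlier days too. Haematopoietic markers summed to 13.9 to 29.0 CPM in EXP and 4.22 to 12.7 CPM in CTRL on day 1, and to 15.3 to 32.2 and 6.42 to 11.2 CPM on day 2, with no overlap. The 6 haematopoietic markers were not alike in level. Over all libraries Cd3e and Cd68 reached 28.9 and 24.9 CPM, and S100a8 and Lyz2 reached 4.74 and 4.37 CPM. Ptprc, the gene of CD45, and Adgre1 were at most 0.243 and 0.236 CPM. Adipocyte markers on day 2 summed to 1.93 to 28.2 CPM in EXP and 0 to 0.404 CPM in CTRL, and endothelial markers to 0.669 to 2.48 and 0 to 0.522 CPM. The 7 keratinocyte markers went the other way, with 5.55 to 6.26 CPM in EXP and 9.31 to 39.3 CPM in CTRL on day 2. On day 1 the arms overlapped for them, at 3.35 to 16.9 CPM in EXP and 9.37 to 45.0 CPM in CTRL. Their medians on day 1 were 5.99 CPM in EXP and 25.1 CPM in CTRL. The part of these cells in the results of days 1, 2 and 4 was not tested.

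Amotl1 (ENSMUSG00000013076) encodes angiomotin-like 1, which binds YAP and TAZ and keeps them out of the nucleus. On day 4 it was at 102, 112, 92.2 and 83.9 CPM in CTRL and at 35.9, 52.9 and 73.8 CPM in EXP. On day 2 it was at 103, 107 and 98.0 CPM in CTRL and at 57.5, 74.6 and 67.0 CPM in EXP. All EXP libraries were below all CTRL libraries on both days. The log2 fold change was -0.85 (SE 0.19) on day 4, with an adjusted p of 0.00481, and -0.63 (SE 0.20) on day 2, with 0.0408. The day 4 call was kept with each of the 7 libraries left out in turn (-1.12 to -0.62) and lost with the day 4 libraries fitted alone (-0.86, adjusted p 0.0701). The day 2 call was lost without any one of the 3 CTRL libraries or EXP replicate 1 or 3 (adjusted p 0.0470 to 0.192 over all 6 omissions), and library totals without TMM gave -0.173 (adjusted p 0.504).
On day 1 the values of Amotl1 were 81.7, 76.8, 62.6 and 61.3 CPM in CTRL and 86.6, 73.4, 90.5, 72.7 and 89.8 CPM in EXP, which overlapped (log2 fold change 0.23, SE 0.17, adjusted p 0.326). Amotl1 was the 1 gene of the 10 whose EXP effect differed between days in the joint test (adjusted p 0.0192), against 8.82% of tested genes. Its EXP effect on day 4 minus that on day 1 was -1.08 on the log2 scale (SE 0.25, adjusted p 0.00987, with 13.3% of tested genes called for this difference). The joint call was lost without CTRL replicate 3 of day 1 (adjusted p 0.0509).
Its relative Amotl2 (ENSMUSG00000032531), which restrains YAP in the same way and is also a target gene, overlapped between arms on every day. EXP libraries ranged from 22.2 to 81.5 CPM on day 1, 37.7 to 54.7 on day 2 and 25.6 to 81.1 on day 4, and CTRL from 35.2 to 51.7, 42.1 to 48.6 and 29.2 to 54.7 CPM. Its log2 fold changes of 0.38, 0.12 and 0.10 had 95% intervals of -0.31 to 1.06, -0.71 to 0.95 and -0.68 to 0.88. These intervals span both directions. The high day 4 value came from EXP replicate 1, and without it the log2 fold change was -0.66.

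**Figure D3:**
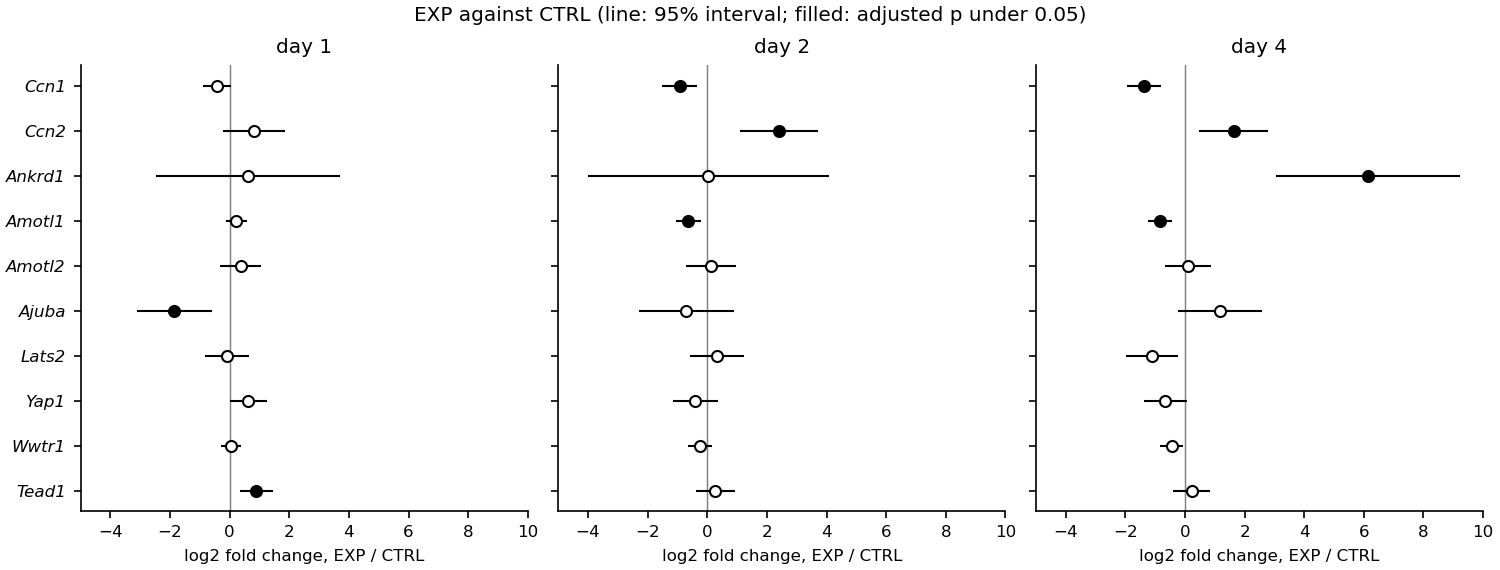
Log2 fold change of EXP against CTRL for the 10 genes on days 1, 2 and 4, with lines for 95% intervals and filled points for adjusted p under 0.05. Ccn1 and Amotl1 lie below 0 on days 2 and 4 while Ccn2 lies above 0, and the Ankrd1 interval is wide on every day.

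Ajuba (ENSMUSG00000022178) encodes a LIM-domain adaptor of cell junctions that inhibits LATS kinases. It fell on day 1, from 2.35, 2.71, 2.47 and 3.10 CPM in CTRL to 1.12, 0.0404, 0.908, 1.11 and 0.438 CPM in EXP, with no overlap. These levels rest on 57 to 81 counts in CTRL and 1 to 35 in EXP. The log2 fold change was -1.86 (SE 0.61, adjusted p 0.0250). The call was lost without CTRL replicate 4 or EXP replicate 5 (adjusted p 0.0259 to 0.0568 over the 9 omissions), on library totals without TMM (-1.63, adjusted p 0.0571) and within each side of the library split. The high side gave -2.09 (adjusted p 0.132) and the low side, with 1 CTRL library, -1.91 (adjusted p 0.267), values as large as with all libraries. On day 2 it was at 0.449 to 1.54 CPM in CTRL and 0.330 to 0.986 CPM in EXP (log2 fold change -0.70, adjusted p 0.593). On day 4 CTRL ranged from 0.772 to 1.39 CPM and EXP held 5.18, 0.625 and 1.21 CPM, a difference of 1.16 (SE 0.68, adjusted p 0.224) that became -0.19 without EXP replicate 1. Whether the effect on Ajuba differed between days did not pass the joint edgeR test (adjusted p 0.0863), while DESeq2 gave 0.0305. The effect on day 4 minus that on day 1 was 3.02 for Ajuba (SE 0.91) and passed when tested alone (adjusted p 0.0321).

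Lats2 (ENSMUSG00000021959) encodes a kinase that phosphorylates YAP and TAZ and is itself their target gene. None of its 3 comparisons passed the test, with values of -0.08 (SE 0.36), 0.33 (SE 0.44) and -1.11 (SE 0.42) on the log2 scale and adjusted p of 0.892, 0.678 and 0.0617 on days 1, 2 and 4. On day 2 all 3 EXP libraries (19.4 to 23.7 CPM) nevertheless lay above all CTRL libraries (15.4 to 18.9 CPM). On day 4 CTRL was at 17.2, 24.8, 56.9 and 51.1 CPM and EXP at 22.7, 14.2 and 15.4 CPM. The 2 high CTRL libraries belong to the high side of that split. Over all 22 libraries Lats2 ranged from 25.4 to 81.9 CPM on the high side (median 52.0, n = 7) and from 14.2 to 36.6 CPM on the low side (median 19.6, n = 15). The day 4 difference was -0.45 (adjusted p 0.342) with the split as a covariate and -0.27 (adjusted p 0.663) within the low side. Without CTRL replicate 1 or 2, which are low, it passed the test (adjusted p down to 0.0241), and DESeq2 gave -1.13 (adjusted p 0.0287). Exons of Lats2 overlap those of Gm49361 on the same strand.

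**Figure D4:**
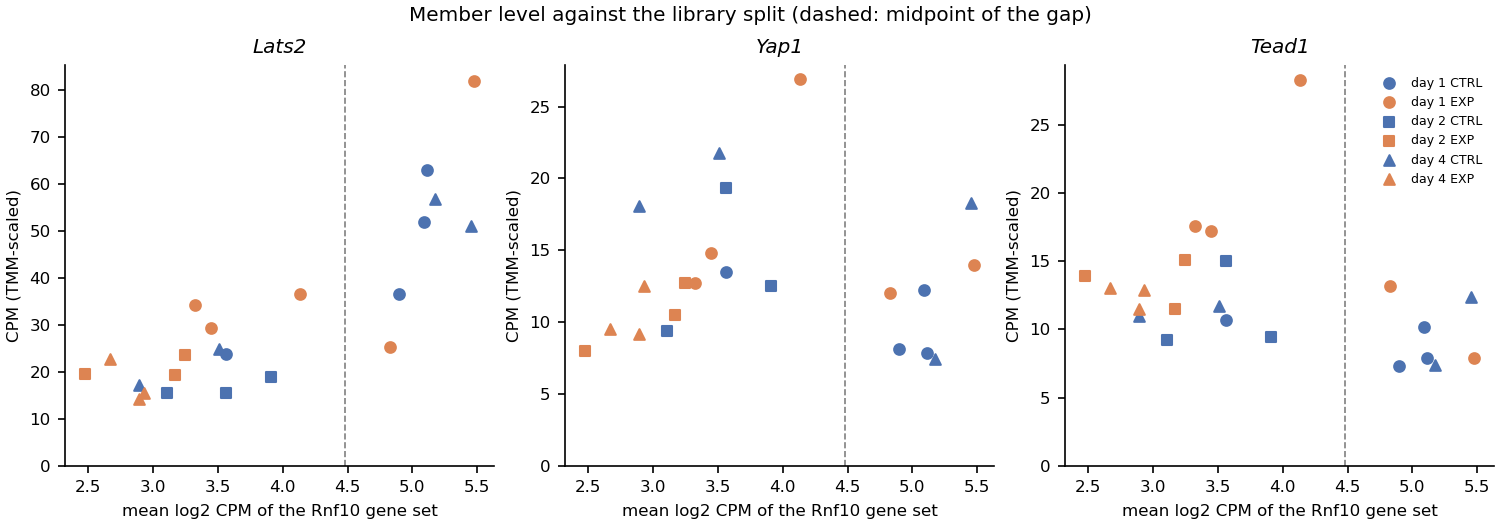
Level of Lats2, Yap1 and Tead1 (CPM on TMM-scaled totals) against the mean log2 CPM of the 192 genes that follow Rnf10, 1 point per library, blue for CTRL and orange for EXP, with circles for day 1, squares for day 2 and triangles for day 4. The dashed line marks the middle of the gap between the sides, and Lats2 has its 5 highest values to the right of it.

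The transcripts of the co-activators themselves did not pass the edgeR test on any day, though both did on 1 day under another setting. Wwtr1 (ENSMUSG00000027803), the gene of TAZ, ranged from 161 to 204 CPM in CTRL and 147 to 230 CPM in EXP of day 1. It ranged from 230 to 289 CPM in CTRL and 214 to 235 CPM in EXP on day 2, and from 179 to 236 CPM and 132 to 214 CPM on day 4. Its log2 fold changes of 0.04, -0.26 and -0.44 had 95% intervals of -0.29 to 0.37, -0.66 to 0.15 and -0.82 to -0.07 (adjusted p 0.873, 0.414 and 0.0829). The day 4 difference passed the test with limma voom (-0.56, adjusted p 0.0419), with the library split as a covariate (-0.55, adjusted p 0.0495) and without EXP replicate 3 (-0.70, adjusted p 0.00832).
Yap1 (ENSMUSG00000053110) was at 7.88 to 13.5 CPM in CTRL and 12.0 to 26.9 CPM in EXP of day 1. The day 2 ranges were 9.35 to 19.3 CPM and 7.99 to 12.8 CPM, and those of day 4 were 7.46 to 21.8 CPM and 9.20 to 12.5 CPM. The log2 fold changes of 0.63, -0.40 and -0.65 had 95% intervals of 0.01 to 1.25, -1.15 to 0.35 and -1.36 to 0.06 (adjusted p 0.122, 0.505 and 0.173). The day 1 value was 0.362 without EXP replicate 3 (adjusted p 0.368), and on library totals without TMM it was 0.828 and passed (adjusted p 0.0486). The joint test of a day-dependent effect on Yap1 gave an adjusted p of 0.124. Exons of Yap1 overlap those of Gm20416 on the opposite strand.
Compared per kilobase of exon, so that gene length does not enter, TAZ mRNA was far more abundant than YAP mRNA in these cells. Wwtr1 averaged 43.3 ± 8.66 CPM per kilobase and Yap1 1.43 ± 0.54 (SD over 22 libraries), and the lowest Wwtr1 library (27.7) was above the highest Yap1 library (2.90). The log2 ratio of Wwtr1 to Yap1 counts differed between EXP and CTRL by -0.57, 0.11 and 0.09 on days 1, 2 and 4 (two-sided exact permutation p 0.159, 1.0 and 0.857, adjusted over the 6 ratio tests 0.238, 1.0 and 1.0).

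Tead1 (ENSMUSG00000055320), the gene of a DNA-binding factor through which YAP and TAZ act, rose on day 1. The CTRL libraries held 10.2, 7.88, 7.34 and 10.7 CPM and the EXP libraries 7.90, 13.2, 28.3, 17.6 and 17.2 CPM, so 4 of the 5 EXP libraries lay above all CTRL libraries and 1 lay among them. The log2 fold change was 0.90 (SE 0.27, adjusted p 0.0152). The call was lost without CTRL replicate 3 or EXP replicate 3 (adjusted p up to 0.0595, log2 fold change 0.64 to 1.11 over the 9 omissions), and the library split as a covariate gave 0.65 (adjusted p 0.0558). Within the high side of the split the day 1 value was 0.31 (adjusted p 0.510), and within the low side, with 1 CTRL library, it was 0.97 (adjusted p 0.163). On days 2 and 4 Tead1 lay between 7.42 and 15.1 CPM in all libraries, with differences of 0.27 (SE 0.32) and 0.23 (SE 0.30) and adjusted p of 0.633 and 0.615. Per kilobase of exon the TEAD genes averaged 0.987 ± 0.484 CPM for Tead2, 0.919 ± 0.338 for Tead1, 0.703 ± 0.265 for Tead3 and 0.164 ± 0.117 for Tead4 (SD over 22 libraries), and Tead1, Tead2 and Tead3 overlapped in range.

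Per kilobase and averaged over all 22 libraries, Ccn1 was the most abundant of the 10 genes (1225 ± 436 CPM per kilobase), followed by Ccn2 (60.1 ± 40.7), Wwtr1 (43.3 ± 8.66), Amotl1 (7.93 ± 1.91), Amotl2 (7.56 ± 2.57), Lats2 (4.55 ± 2.63), Yap1, Tead1, Ajuba (0.384 ± 0.318) and Ankrd1 (0.142 ± 0.447, SD over 22 libraries). The lowest Ccn1 library (374 CPM per kilobase) exceeded the highest Ccn2 library (136), so Ccn1 stayed the more abundant transcript in EXP as well. Amotl1 and Amotl2 overlapped in range. The order differed between groups. Wwtr1 averaged more than Ccn2 in CTRL of day 2 (56.3 against 18.9 CPM per kilobase) and day 4 (45.6 against 23.1), and less in the other 4 groups. Ankrd1 averaged 0.934 CPM per kilobase in EXP of day 4, against 0.642 for Ajuba.

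Over days 1, 2 and 4, Ankrd1 was the 1 gene of the 10 that changed within EXP (joint edgeR test, adjusted p 0.00474), against 14.3% of tested genes. It had entered the test only through the day 4 EXP libraries, and with every gene of at least 1 count tested its adjusted p was 0.00533. The call was lost without EXP replicate 2 of day 4 (adjusted p 0.0900) and by DESeq2 (0.0808), which called Ajuba, Amotl1 and Lats2 instead. Amotl1 (adjusted p 0.0636) and Lats2 (0.0542) were close to the threshold. Within CTRL 0 of the 10 genes passed by edgeR, against 0.291% of tested genes. An unadjusted p under 0.05 in that test was found for 4 of the 10, beside 2490 of all 17554 tested genes. DESeq2 called 0 of the 10, beside 525 of all tested genes, and limma voom called 1, Amotl1, beside 631. Day can coincide with a batch of processing that no label records, and the 2 cannot be told apart within an arm.

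The other genes of the pathway, in lists written by hand, moved in both directions. The 2 paralogs of the CCN family called in EXP were Ccn3 (also Nov), a growth-restraining relative of CCN1 and CCN2, and Ccn5 (also Wisp2), which lacks the C-terminal module of the family. Ccn3 rose on each of the 3 days, by 1.11 (adjusted p 0.0462), 2.46 (0.00414) and 3.48 (0.000244) on the log2 scale, from 31.7 ± 7.06 CPM (SD, n = 4) in CTRL to 353 ± 222 CPM (SD, n = 3) in EXP on day 4. Ccn5 fell on day 1 by 2.16 on the log2 scale (adjusted p 0.00178) and rose on day 2 by 1.74 (0.0466) and on day 4 by 2.14 (0.00795). Its CTRL mean was 329 ± 211 CPM (SD, n = 4) on day 1 and 90.4 ± 71.4 CPM (SD, n = 4) on day 4. The effect depended on the day for both, with adjusted p 0.0402 for Ccn3 and 0.00143 for Ccn5. Of 4 listed CCN genes 3 were tested, and the third, Ccn4, had log2 fold changes of -0.03, 1.19 and 0.98 that did not pass (adjusted p 0.966, 0.0865 and 0.0938).

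Among 17 other reported YAP and TAZ targets, 16 were tested, and 2, 3 and 3 of them were called on days 1, 2 and 4, with medians of -0.17, -0.37 and -0.22. Beside the 28.6%, 13.4% and 22.5% of all tested genes called, these counts are no result about the list. F3, the gene of tissue factor that starts coagulation, rose on day 2 from 9.62 ± 1.49 to 163 ± 76.4 CPM (SD, n = 3 each; log2 fold change 4.08, SE 0.60, adjusted p 0.000369). On day 4 F3 rose from 43.1 ± 19.4 (SD, n = 4) to 266 ± 120 CPM (SD, n = 3; log2 fold change 2.63, adjusted p 0.00204). Dock5 was also higher on day 2 (2.28, adjusted p 0.0175) and Tgfb2, a TGF-beta ligand, lower (-1.20, adjusted p 0.0479). On day 1 both called targets were lower: Nt5e, the ecto-5′-nucleotidase CD73 (-1.38, adjusted p 0.00512), and the matrix protein gene Ccdc80 (-1.31, adjusted p 0.000971). On day 4 Asap1 (-1.07, adjusted p 0.00757) and Rbms3 (-0.45, adjusted p 0.0408) were lower.

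Of the 19 kinases and upstream regulators of the Hippo pathway, 5 were called on day 1, 2 on day 2 and 4 on day 4, with medians of 0.02, -0.20 and -0.25, which is near the share called among all tested genes (28.6%, 13.4% and 22.5%). Wwc1 (KIBRA), an activator of LATS kinases, rose from 0.477 ± 0.321 to 4.57 ± 2.27 CPM on day 2 (SD, n = 3 each; log2 fold change 3.25, adjusted p 0.00369) and by 2.54 on day 4 (adjusted p 0.00558). Frmd6 (Willin), a FERM-domain activator of the pathway, fell on all 3 days, by 0.66 on day 1 (adjusted p 0.00331; a further call of that day, outside the rule for named genes), 0.77 on day 2 (0.0110) and 0.78 on day 4 (0.00549). The kinase gene Map4k4 rose on day 1 by 1.42 (adjusted p 0.00295), and Map4k2 (-1.08, adjusted p 0.0324), the atypical cadherin gene Fat1 (-0.82, 0.00844) and Taok3 (-0.76, 0.00273) fell. On day 4 Map4k2 (-1.68, adjusted p 0.0120) and Taok1 (-0.55, 0.0312) fell. Of 8 tested TEAD genes, partners and inhibitors, Wtip, an Ajuba relative, was higher (1.14, adjusted p 0.0149) and Vgll4, a TEAD repressor, lower (-0.43, 0.0419) on day 1. Tead3 was lower on day 2 (-1.14, adjusted p 0.0378). On day 4 the smallest adjusted p among these 8 was 0.152, for Tead4 (-1.40), which was singled out after its value was seen.

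Targets of SRF with its actin-sensing co-activators MRTF, the other main stretch-linked programme, had 4, 5 and 4 of 11 tested genes called on days 1, 2 and 4, all of them higher, with medians of 0.32, 0.96 and 0.45. Among all tested genes 13.9%, 7.72% and 12.8% were called higher on these days. The list was written by hand with earlier results of these data known, so its counts and direction depend on the genes put in it. Its counts under other settings are not given. Members that were not called went both ways: on day 1 Tagln was at -1.32 (adjusted p 0.110), Myl9 at -1.12 (0.0755) and Fhl2 at -0.94 (0.0507), values singled out after they were seen. Those named by the largest rise were Zyx (1.07, adjusted p 0.0210), Vcl (0.73, 0.0259) and Flna (0.72, 0.0220) on day 1, genes of actin-anchoring proteins. On day 2 they were Fhl2 (3.51, adjusted p 0.000220), Acta2 (2.73, 0.0254) and Zyx (1.59, 0.0138). On day 4 they were Fhl2 (3.03, adjusted p 0.000231), Zyx (2.26, 0.000697) and Acta2 (2.22, 0.0264). Exons of Taok1, Map4k2, Fat1, Tgfb2, Vcl and Zyx overlap those of another gene on the opposite strand, with the same limit as for Ccn2. Acta2, the smooth muscle actin gene and a common myofibroblast marker, averaged 22.2 ± 9.30 CPM in EXP (SD, n = 3), against 4.78 ± 1.74 CPM in CTRL (SD, n = 4), on day 4. Other contractile genes of the list were not alike on days 2 and 4. Tpm1, a further call outside the rule for named genes, rose by 1.46 (adjusted p 0.000865) and 1.12 (0.00244). Tagln and Myl9 did not pass: Tagln was at 1.26 and 0.83 (adjusted p 0.305 and 0.392) and Myl9 at -0.14 and -0.10 (0.907 and 0.909). The summed pericyte and smooth muscle markers were at 23.0 to 45.2 CPM in EXP and 76.9 to 91.1 CPM in CTRL on day 2. That sum was mostly Kcnj8 and Abcc9, and Rgs5 and Myh11 were at most 4.55 and 2.34 CPM in any library. The part of such cells in the Acta2 values was not tested.

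**Figure D5:**
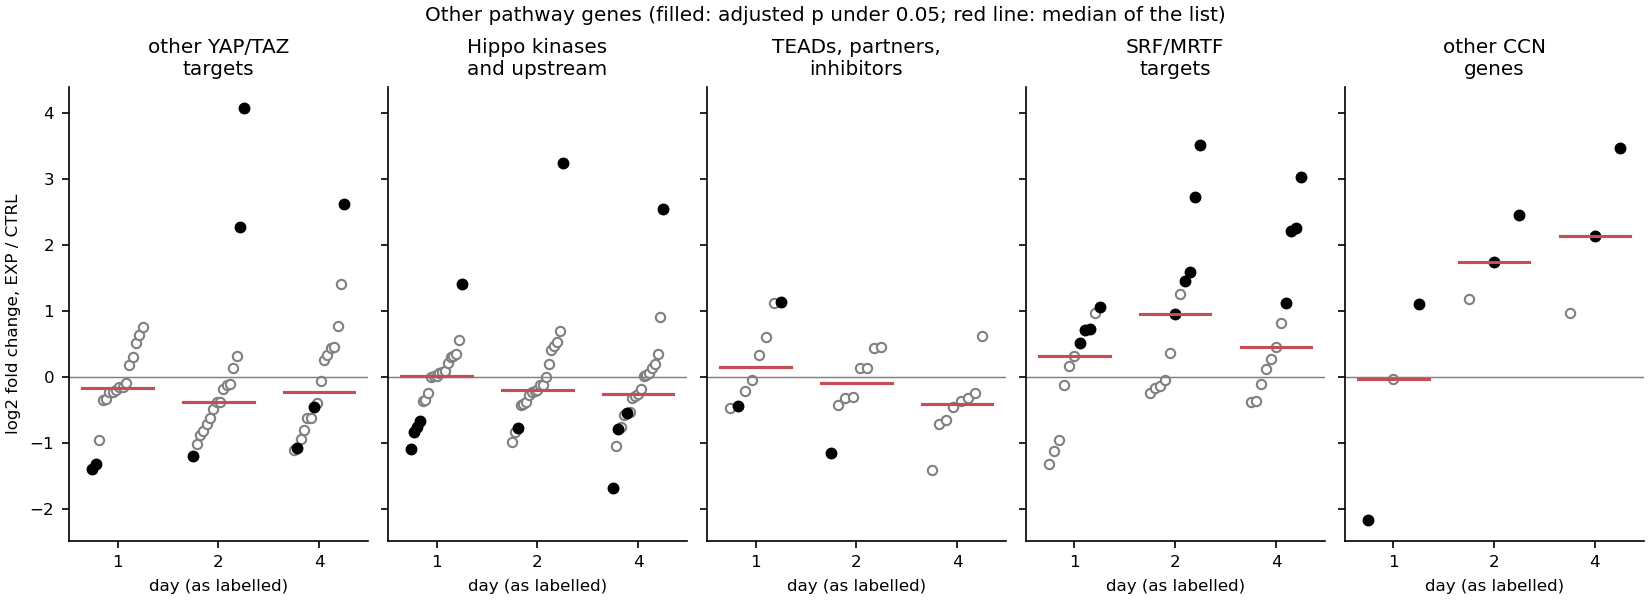
Log2 fold change of EXP against CTRL on days 1, 2 and 4 for the tested genes of 5 hand-written lists, 1 point per gene, filled where adjusted p was under 0.05, with the list median as a red line. The called SRF/MRTF targets all lie above 0, and the other lists hold called genes on both sides of 0 on at least 1 day.

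Likeness of pattern was described by Pearson correlation of log2 CPM over the 22 libraries, which share depth, day, arm and the library split, among the 9867 tested genes that averaged 5 CPM or more, with no test. Ccn1 was most like Usp2 (r 0.945), Tnfrsf19 (0.939) and Zfp536 (0.932), and Amotl1 most like Tle4 (0.935), Litaf (0.927) and Dtx2 (0.924). Ccn2 was most like Pmepa1 (0.847), Tnfrsf11b (0.820) and Elk3 (0.811), with 0.697, 0.457 and 0.528 once group means were removed. Ankrd1 was most like Tmc6 (0.904), Mfap5 (0.882) and Gas7 (0.873), and its rank correlations with them were lower (Spearman's rho 0.724, 0.611 and 0.534). For the others the nearest gene was Eif4g1 for Amotl2 (0.794), Ik for Ajuba (0.756), Ubqln1 for Lats2 (0.914), Agap3 for Yap1 (0.925), Ahrr for Wwtr1 (0.870) and Bcr for Tead1 (0.873). Among the 10 genes, Ccn1 went with Amotl1 (r 0.789) and Wwtr1 (0.672), and Yap1 with Tead1 (0.593). The correlation of Ccn1 with Ccn2 was -0.44 over all libraries and 0.376 with group means removed.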

How the data were processed

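The authors deposited 1 table of raw gene counts for the 22 libraries, and 0 columns belonged to no sample. Per the submitters' processing notes, reads were trimmed with Trimmomatic and the genome build was mm39; the aligner, counting tool, annotation release and use of strand are not given in the sources used here. Symbols came from GENCODE M21, which named 52081 of 55414 identifiers. Because that annotation is on another build, no gene coordinates are given beyond RefSeq's own promoter windows on GRCm38.p6, and exon lengths per kilobase are from M21.

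The deposited counts were analysed in R 4.3.3 with edgeR 4.0.16. filterByExpr (minimum count 10) kept 17554 genes, TMM scaled the libraries, and a robust quasi-likelihood model with a mean per group (16 residual degrees of freedom) was fitted to all of them. The fit was tested on simulated data first, with changes placed on day 1 only. It recovered 34% of 2-fold and 69% of 4-fold changes, with 1 false call among 104. Far fewer genes were changed there than were called on day 1 of these data (5017). The simulated counts were drawn independently for each gene, with no library split. Neither the recovery nor the false calls of the simulation are therefore those of the report's fit. A gene that was not called can still have changed. SEs are the log2 fold change divided by the square root of F. Alternatives used DESeq2 1.42.0 and limma voom 3.58.1, and ratio tests used scipy 1.17.1. Log2 CPM for likeness had a prior count of 2. Libraries of a group were never as close as chance sampling of reads would make them (26.7 to 403 for chi-square over its degrees of freedom), so none was merged.

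The 10 genes, the gene lists, the library split and the tests were chosen with earlier results of these data known. All 10 genes are named. From each other list the 3 largest rises and falls among the called genes of a day are named, and paralogs of the 10 genes where levels are compared. For likeness, up to the 3 genes with the highest correlation are named. Of the marker lists without values in the report, Schwann cell and melanocyte markers to 0.446 to 3.96 CPM over all libraries.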

Additional observations from a re-analysis of the deposited data

Results flagged for a closer look

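Of 59 groups of 4 or 5 libraries checked for 1 library standing apart by Dixon's ratio, 8 were set apart, where chance gives about 2.95. All lie on day 1, but groups of this size were only CTRL and EXP of day 1 and CTRL of day 4. In CTRL, Ccn1 was at 3182 CPM in replicate 2 and at 2591 to 2654 CPM in the others, and Ankrd1 was at 0.143 CPM in replicate 3 and at 0 in the others. In EXP, Ankrd1 was at 0.323 CPM in replicate 2 and at 0 in the others, which is 8 counts. With 0 in all other libraries the ratio is at its largest whatever the count, so both Ankrd1 cases were fixed by the floor. Lats2 was at 81.9 CPM in EXP replicate 1 (others 25.4 to 36.6), a library on the high side of the split, and Yap1 at 26.9 CPM in EXP replicate 3 (others 12.0 to 14.8), the library that also had the highest Tead1. Among marker sums, EXP replicate 2 was apart for keratinocytes (16.9 CPM, others 3.35 to 6.56) and for pericytes and smooth muscle (41.7 CPM, others 13.4 to 20.7), and EXP replicate 1 for endothelium (4.3 CPM, others 0.573 to 1.54).

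The EXP effect differed between days by the joint edgeR test for Amotl1 (adjusted p 0.0192) and for 7 other genes under the rule for named genes. These were Fhl2 (adjusted p 0.000211), F3 (0.000804), Ccn5 (0.00143), Taok3 (0.0269), Wwc1 (0.0272), Ccn3 (0.0402) and Wtip (0.0441). Tpm1, named outside that rule, also passed (0.046). Ccn5 was called lower on day 1 and higher on days 2 and 4. These genes were named for being called on at least 1 day, so their number is no count over the lists.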

How the results depend on the processing

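Over the 30 fold changes of the 10 genes by day, 488 values were computed under other settings: 407 kept direction and side of the threshold, 47 lost a call, 9 gained one and 25 changed sign, with the cause not tested. Only a called value could lose a call, and most of the 30 were not called, so the 407 do not measure how firm the calls were. Ccn2 day 4 stayed called in 5 of 9 other settings and 0 of 7 omissions, and Ccn1 day 4 in 9 of 9 and 7 of 7. Labels give replicate numbers in both arms without saying whether they pair the libraries. Deviations from the group means correlated at -0.066 to 0.164 between same-numbered libraries. Differently numbered libraries were not compared, so this cannot decide on a pairing, and the report's fit uses none. A replicate block left 0, 1 and 2 of the 10 genes called on days 1, 2 and 4 and 0 with a day-dependent effect. Of all tested genes it called 4337, 2210, 2702 and 401. The block could not be fitted to changes over days within an arm. The number of the 10 genes called, 2 on day 1, was 1 with the library split as covariate and 0 within either side of it; 3 on day 2, it was 1 on library totals without TMM and 1 with no filter on low counts. Leaving out 1 library at a time gave 1 to 2 on day 1, 0 to 3 on day 2, 2 to 4 on day 4, 0 to 2 for day-dependent effects and 0 to 4 for change within EXP. In the same order, omission left 4024 to 4830, 891 to 2177, 1633 to 5011, 898 to 2572 and 1367 to 3415 of all tested genes called. Day-dependent effects numbered 2 by DESeq2, with 2609 of all tested genes called, against 1549 in the report's fit. Changes within EXP numbered 3 by DESeq2 (Ajuba, Amotl1 and Lats2, with Ankrd1 lost) and 3 without TMM (Amotl1 and Ccn1 added). Of all tested genes these settings called 3551 and 2445, against 2502. Changes within CTRL numbered 1 by voom, with 631 of all tested genes called, against 51. For the other targets the counts were 0 on the high side on day 1, 6 by voom on day 2, and 7 by DESeq2, 1 on the low side and 1 with the libraries fitted alone on day 4, with 2 to 4, 1 to 3 and 2 to 7 on omission. For the Hippo and TEAD lists together, 7, 3 and 4 in the report's fit, they were 3 and 0 within the sides on day 1, 5 by voom on day 2, and 1 on the low side and 1 alone on day 4, with 1 to 3 on omission on day 2 and 2 to 5 on day 4. The number of all tested genes called moved with these settings too. For day 1 it was 4879 with the split as covariate and 2736 on the high side, against 5017 in the report's fit. For day 2 it was 4620 by voom, 4632 on library totals and 1663 with no filter, against 2359. For day 4 it was 4800 by DESeq2, 1562 on the low side and 1128 with the libraries fitted alone, against 3943. Signs changed in values that were not called. On library totals Lats2 day 1 was 0.116, Yap1 day 2 was 0.034 and Wwtr1 day 2 was 0.226. By voom Ankrd1 day 1 was -0.617 and Amotl2 day 4 -0.164. With the block Ankrd1 day 2 was -0.185, Wwtr1 day 1 -0.036 and the Wwtr1 to Yap1 ratio of day 4 -0.091. With the split as covariate Lats2 day 1 was 0.313, Wwtr1 day 1 -0.041 and Tead1 day 4 -0.056; within its sides Lats2 day 1 was 0.086 and 0.493 and Wwtr1 day 1, on the high side, -0.107. Omission of 1 library gave -3.155 to 3.754 for Ankrd1 day 1, -3.452 to 0.823 for Ankrd1 day 2, -0.658 to 0.37 for Amotl2 day 4, -0.187 to 1.588 for Ajuba day 4, -0.446 to 0.148 for Lats2 day 1, -0.029 to 0.125 for Wwtr1 day 1, -0.273 to 0.417 and -0.091 to 0.452 for the Wwtr1 to Yap1 ratio of days 2 and 4, and 1.063 to 2.196 for the Ccn2 to Ccn1 ratio of day 1 (exact permutation p 0.0357 without CTRL replicate 4). Where an omission left 2 libraries in a group, the other groups still set the spread. Depth limits Ankrd1 and Ajuba, whose lowest libraries held 0 and 1 counts.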
